A study of Mus musculus with 6 samples.

Results

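Mitosis genes are the genes whose products build the spindle, condense and part the chromosomes and divide the cell. A list of 50 of them was matched by symbol to the Ensembl gene IDs of the count tables, and all 50 of the 50 were found among the 25528 genes listed and passed the filter on low counts. They were compared in organoids of mouse gastric corpus, which are epithelial structures grown in 3-dimensional culture; the corpus is the part of the stomach that makes acid. One group of 3 libraries (Erbb2_OE_Corpus) overexpressed Erbb2, a growth factor receptor with tyrosine kinase activity, and the other group of 3 (Ctrl_Corpus) had been transduced with an empty vector. The labels give no strain, animal age, promoter or clone, nor whether the 3 libraries of each group stem from different cultures or animals, so that the p-values measure only the spread between these libraries, which may be technical.

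Mitosis is driven by cyclin-dependent kinase 1 with its A- and B-type cyclins, and is carried on by the Polo and Aurora kinases. The spindle assembly checkpoint holds the anaphase-promoting complex back until all kinetochores are attached, and that ubiquitin ligase then marks securin and cyclin B for destruction. Most of these genes are transcribed in G2 and mitosis under the MuvB complex with B-Myb and FOXM1, so that their RNA in a tissue is often read as a measure of dividing cells. In RNA from whole cultures, fewer dividing cells and less RNA per dividing cell cannot be told apart.

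The tables held between 18735853 and 22767455 counts per library. Erbb2 itself stood at 125, 164 and 128 CPM (counts per 1000000 scaled counts) in control replicates 1, 2 and 3 and at 342, 349 and 285 CPM in the Erbb2 libraries of the same numbers, so that the groups did not overlap (log2 fold change 1.23, SE 0.15; adjusted p in edgeR = 0.640, and 3.55e-05 with the replicate number as a block). Of 18 gastric epithelial markers, 16 were tested, and Epcam, Cdh1 and Krt8 stood between 672 and 2279 CPM over the libraries. Others of the list were near 0: Gkn1, Gkn2 and Muc5ac reached at most 4.83, 2.38 and 3.17 CPM, and Muc5ac was not tested. With the block 2 of the list passed: the trefoil factor gene Tff2 rose (log2 fold change 0.91, edgeR adjusted p = 0.00167) and Sox2, a transcription factor gene of the stomach, fell (-0.48, 0.0144). Cldn18, a tight junction gene, and Gkn3, a gastrokine gene, had log2 fold changes of 0.93 and 1.46 and did not pass (adjusted p = 0.120 and 0.585 with the block). Of the other tested markers, Pgc, Muc1 and Epcam were at -0.36, -0.26 and -0.10 with the block and the rest above 0, up to 2.03 for Gkn2. None of these passed (lowest edgeR adjusted p with the block 0.0528, for Krt7). The part of these epithelial differences in the results below was not tested. Of the 2 genes of the proton pump of the acid-secreting parietal cell, Atp4b had 0 counts in every library and Atp4a stood between 2.87 and 5.41 CPM. Of 8 fibroblast markers, 5 were at 0 in every library and the list summed to between 0.695 and 1.42 CPM in controls and between 1.35 and 1.70 CPM in Erbb2 libraries. Of 7 immune and 6 endothelial markers, 1 each was at 0 throughout, and 2 of each had enough counts to be tested. The immune list summed to between 20.8 and 54.1 CPM in controls and between 18.5 and 73.9 CPM in Erbb2 libraries, most of it from Cd68, and the endothelial list to between 2.53 and 5.89 and between 2.32 and 14.3 CPM. Both sums were highest in the 2 libraries of replicate 3, but not all their markers were. Ptprc, tested beside Cd68, was lowest in replicate 3 within each group, at 1.48, 1.97 and 0.731 CPM in control replicates 1, 2 and 3 and 0.698, 1.08 and 0.500 CPM in Erbb2 libraries. The endothelial sum came mostly from Tek, at 8.95 CPM in Erbb2 replicate 3 and at most 0.688 CPM elsewhere, and Esam. The untested markers reached at most 0.583 CPM (immune) and 0.349 CPM (endothelial). The part of these markers in the results below was not tested. On the first principal component, with 57.8% of the variance, the 2 libraries of replicate 3 also stood highest. The scores were -20.0, -50.1 and 38.8 in control replicates 1, 2 and 3 and 1.71, -20.6 and 50.1 in Erbb2 libraries. The Erbb2 library was above its control in each pair.

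All 50 mitosis genes had a fitted log2 fold change below 0 in the Erbb2 organoids, against 52.3% of the 12593 genes tested, and their median was -0.41 against -0.01 over all tested genes. None passed the test between groups without a block (edgeR, 0 lower and 0 higher; over all genes 0.00% were called lower and 0.00% higher), and 0 of the 50 had an unadjusted p under 0.05. DESeq2 and limma voom without the block also called 0 members. Over all genes DESeq2 called 28 higher and 6 lower, and limma voom 0 and 0. With the replicate number as a block, 2 members fell and 0 rose, against 0.723% and 2.37% of all genes. These were Ccnb2, a B-type cyclin, and Racgap1, a component of the centralspindlin complex of cytokinesis. With the block 26 members were lower at an unadjusted p under 0.05 and 0 were higher, where 7.21% of all genes were lower and 9.64% higher at that level. The 23 members that were lower in each of the 3 pairs of same-numbered libraries compare with 19.2% of all genes, and 0 were higher in each pair, against 19.6%.

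The difference was not of the same size in the 3 pairs. In replicate 1 the median difference of the members, as log2 CPM of the Erbb2 library minus the control, was -0.25, with 46 of 50 below 0 (50.9% of all genes). For replicate 2 the median was 0.00 and 25 of 50 were below 0 (49.5% of all genes). In replicate 3 it reached -0.70, with 49 of 50 below 0 (50.3% of all genes) and Pttg1 as the exception. The median over all tested genes lay between -0.01 and 0.00 in the 3 pairs. Summed over the 50 genes, the level in the Erbb2 library was 0.846 times that of its control in replicate 1, 1.04 times in replicate 2 and 0.621 times in replicate 3.

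**Figure D1:**
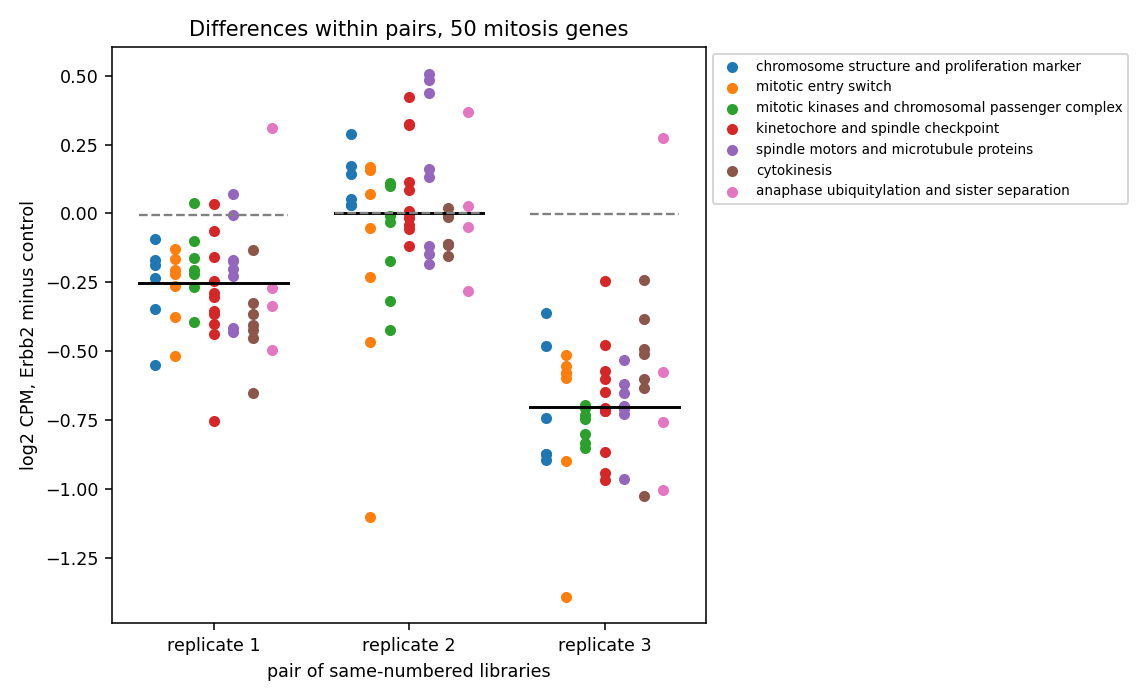
Difference in log2 CPM, Erbb2 minus control library, for each of 50 mitosis genes (points, coloured by role) in each pair of same-numbered libraries. Black lines are the medians of the 50 genes and dashed grey lines those of all tested genes; the black line lies at -0.25 in replicate 1, on 0 in replicate 2 and at -0.70 in replicate 3.

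Much of this rested on control replicate 3. The summed level of the 50 genes was 2018, 1447 and 3779.8 CPM in control replicates 1, 2 and 3 and 1706, 1499 and 2348 CPM in the Erbb2 libraries, or between 0.137% and 0.395% of all counts. Control replicate 3 held the highest value of 49 of the 50 genes and Erbb2 replicate 3 the second highest of 40. The lowest value was in control replicate 2 for 24 genes, in Erbb2 replicate 2 for 24 and in Erbb2 replicate 1 for 2. Control replicate 3 stood 2.32-fold above the mean of the other 2 controls in the median member (range 1.07 to 4.16). Erbb2 replicate 3 stood 1.64-fold above the mean of the other 2 Erbb2 libraries in the same measure (range 1.05 to 2.47), where the median over all genes was 0.994. Without control replicate 3 and without the block, the median log2 fold change of the members was 0.12, with 40 of 50 above 0. With the block and without the pair of replicate 3 it was -0.13, with 43 of 50 below 0.

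**Figure D2:**
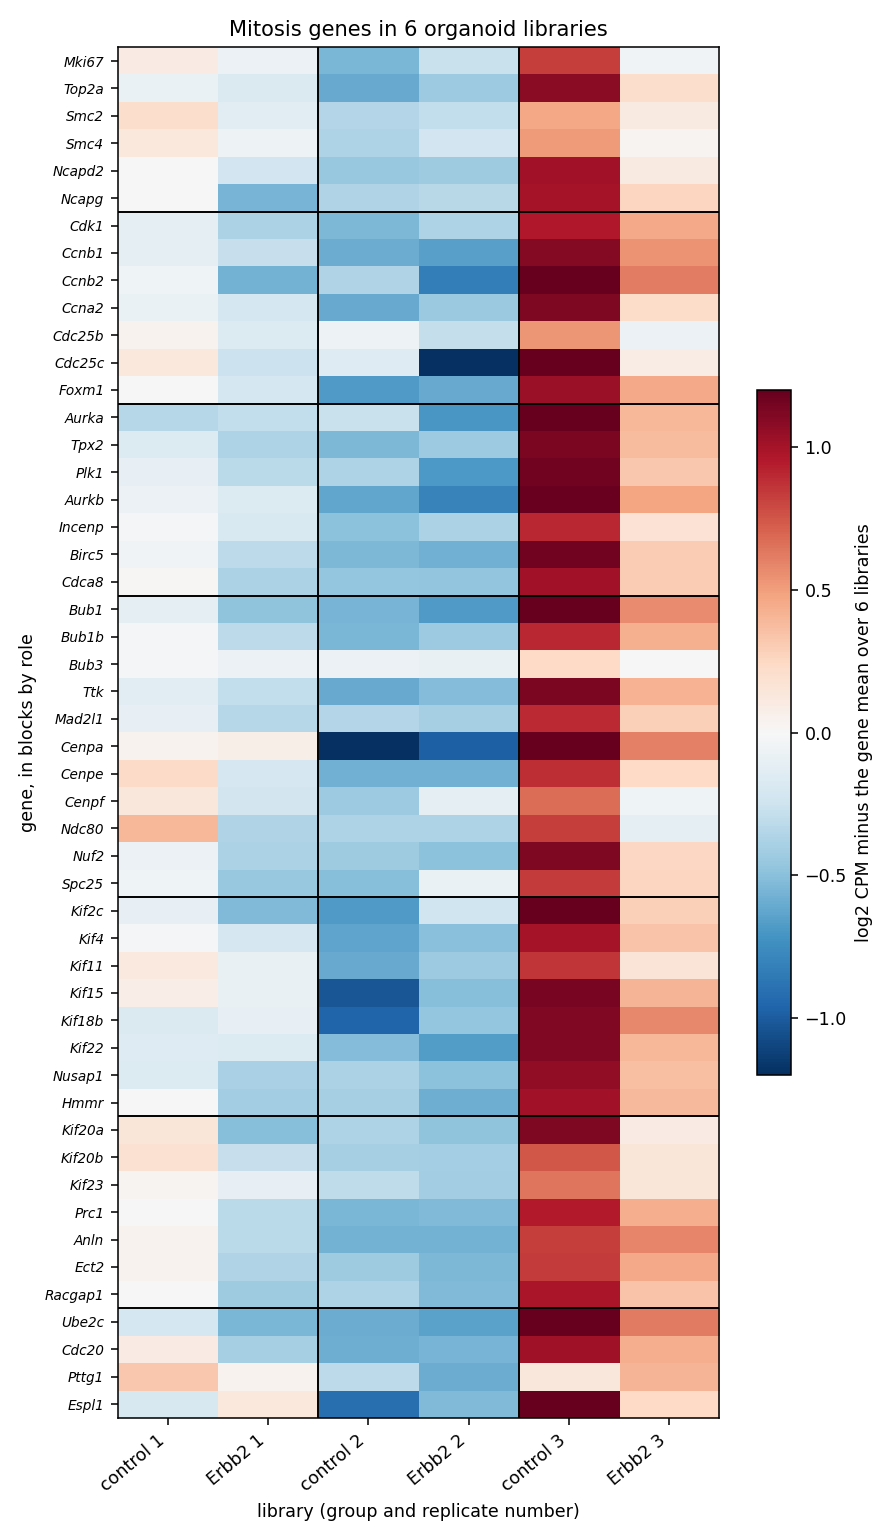
Level of 50 mitosis genes (rows, in blocks by role) in 6 libraries (columns, same-numbered libraries side by side), as log2 CPM minus the mean of the gene over the libraries; values beyond the colour scale take its end colours. Control replicate 3 is the highest library for 49 of the 50 genes, and the pale row in the checkpoint block is Bub3.

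The stretch before the start sites of the members was read for the elements known from cell cycle promoters. The matches depend on the choice of the list and not on the levels in these libraries. RefSeq windows of the build GRCm38.p6, each from 250 bases before a start to 50 after it, were at hand for 42 of the 50 members (45 windows), without Smc4, Ccna2, Cdc25c, Foxm1, Tpx2, Aurkb, Incenp and Kif20a. The cell cycle genes homology region (CHR), the element bound by MuvB, was searched as TTTGAA or TTCGAA and the NF-Y box as CCAAT, each on both strands. TTCGAA reads the same on both strands and was counted once. A CHR match was in 38 of the 45 windows (84.4%), against 19.2% of all 32851 windows. An NF-Y match was in 35 (77.8%), against 37.4%, and both were in 33 (73.3%), against 7.52%. The E2F core TTCCCGC, known from genes of the G1/S transition, was in 1 (2.22%), against 4.60%. Of the CHR matches in member windows, 69.2% began within 50 bases of the start, against 25.2% in all windows. In windows with both, the nearest CHR and NF-Y matches began a median of 26 bases apart, against 61 bases in all such windows. These are matches of letters, and binding was not measured.

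**Figure D3:**
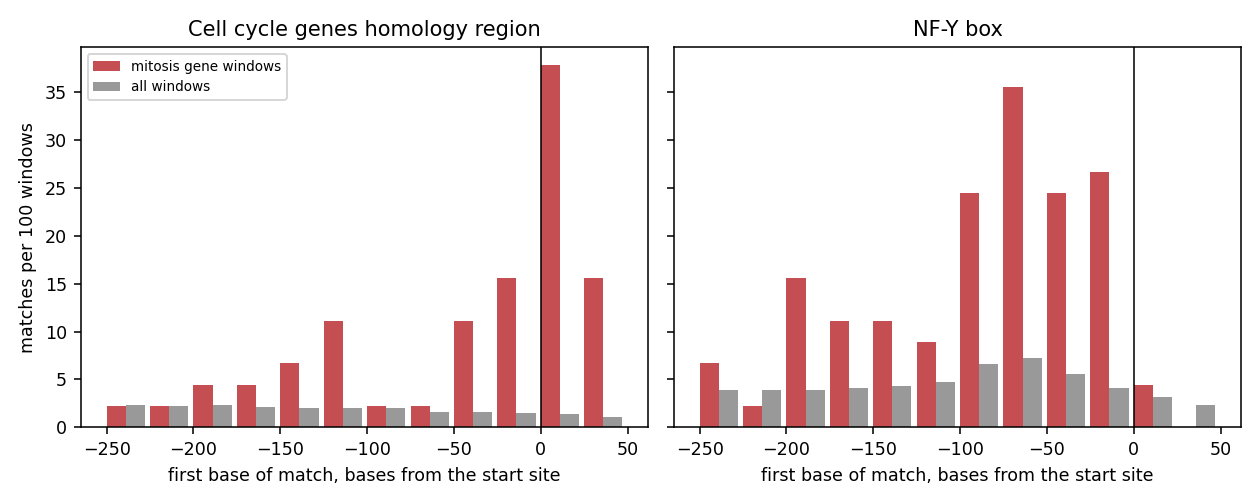
Matches per 100 promoter windows in bins of 25 bases, by the distance of their first base from the start site, for the windows of mitosis genes (red) and all windows (grey). Matches to the cell cycle genes homology region in mitosis gene windows gather just after the start and those to the NF-Y box in the 100 bases before it.

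The stretches from 120 bases before to 30 bases after the start are shown for 8 members: the 2 that fell with the block (Ccnb2, Racgap1), 4 that followed the order of libraries seen in most members (Cdk1, Top2a, Cdc20, Ube2c), and 2 that departed from it, Bub3 by its small range and Pttg1 by its order. CHR and NF-Y matches are in capitals, 5′ to 3′ on the strand of the gene.
Ccnb2: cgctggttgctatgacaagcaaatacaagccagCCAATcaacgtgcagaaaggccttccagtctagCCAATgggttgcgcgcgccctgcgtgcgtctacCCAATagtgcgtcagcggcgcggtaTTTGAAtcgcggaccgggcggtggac
Racgap1: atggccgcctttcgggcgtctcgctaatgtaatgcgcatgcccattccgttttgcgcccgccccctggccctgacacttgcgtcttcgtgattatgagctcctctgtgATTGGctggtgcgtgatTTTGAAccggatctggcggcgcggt
Cdk1: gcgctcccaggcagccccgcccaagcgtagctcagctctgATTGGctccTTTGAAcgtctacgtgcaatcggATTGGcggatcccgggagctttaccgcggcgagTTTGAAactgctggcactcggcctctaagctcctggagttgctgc
Top2a: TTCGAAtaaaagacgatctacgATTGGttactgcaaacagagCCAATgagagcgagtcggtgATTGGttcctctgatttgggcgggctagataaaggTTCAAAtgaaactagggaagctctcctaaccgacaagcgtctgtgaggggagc
Cdc20: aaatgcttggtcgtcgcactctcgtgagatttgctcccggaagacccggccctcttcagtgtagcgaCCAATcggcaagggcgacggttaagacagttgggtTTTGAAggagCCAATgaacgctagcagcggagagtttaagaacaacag
Ube2c: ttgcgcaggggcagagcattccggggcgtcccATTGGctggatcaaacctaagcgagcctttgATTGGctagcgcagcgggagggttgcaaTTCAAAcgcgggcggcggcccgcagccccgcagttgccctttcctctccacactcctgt
Bub3: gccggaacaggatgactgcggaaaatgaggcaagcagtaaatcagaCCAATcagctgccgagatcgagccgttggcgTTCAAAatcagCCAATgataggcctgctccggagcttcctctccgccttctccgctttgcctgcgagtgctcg
Pttg1: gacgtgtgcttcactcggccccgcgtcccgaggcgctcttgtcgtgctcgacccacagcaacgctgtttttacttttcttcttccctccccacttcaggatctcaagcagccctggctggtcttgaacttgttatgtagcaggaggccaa
Their positions in GRCm38.p6 are chr9:70421525-70421674 on the minus strand for Ccnb2, chr15:99651627-99651776 on the minus strand for Racgap1, chr10:69352883-69353032 on the minus strand for Cdk1, chr11:99024160-99024309 on the minus strand for Top2a, chr4:118437314-118437463 on the minus strand for Cdc20, chr2:164769809-164769958 on the plus strand for Ube2c, chr7:131560250-131560399 on the plus strand for Bub3 and chr11:43425952-43426101 on the minus strand for Pttg1. Ccnb2 holds 3 NF-Y matches and 1 CHR match in this stretch, Racgap1 1 of each and Top2a 3 and 2. Bub3, which also departed from most members, holds 2 NF-Y matches and 1 CHR match. Pttg1 holds 0 of either, and over the full windows 5 members held neither (Birc5, Mad2l1, Nuf2, Nusap1 and Pttg1). Of these, all but Pttg1 had the common order, with the highest value in control replicate 3 and the second highest in Erbb2 replicate 3. Whether these matches have a part in the levels was not tested.

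In the switch that starts mitosis, Ccnb2 gave the same difference in all pairs. It stood at 22.9, 18.4 and 54.3 CPM in control replicates 1, 2 and 3 and at 16.0, 13.3 and 36.3 CPM in the Erbb2 libraries. Each Erbb2 library was lower than its own control, by -0.52, -0.47 and -0.58 on the log2 scale, while the groups overlapped because replicate 3 was high in both. With the block the log2 fold change was -0.53 (SE 0.11, adjusted p = 0.0202 in edgeR), a 1.45-fold lower level, and without it -0.54 (SE 0.52). The adjusted p with the block was 0.0915 without replicate 1, 0.101 without replicate 2 and 0.0312 without replicate 3. Ccnb1, the main mitotic cyclin, was at 9.41, 6.70 and 21.7 CPM in controls and at 8.37, 6.45 and 14.8 CPM in Erbb2 libraries (log2 fold change -0.32, SE 0.16 with the block).

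The kinase gene Cdk1 was at 22.5, 16.7 and 47.6 CPM in controls and 18.7, 18.8 and 33.3 CPM in Erbb2 libraries, with pair 2 slightly above 0. Ccna2, the cyclin of S phase and G2, was at 57.4, 39.9 and 132 CPM against 52.6, 44.6 and 70.8 CPM. Foxm1, the transcription factor of this programme, was at 28.9, 18.0 and 59.0 CPM against 24.8, 18.9 and 39.5 CPM. In these 3 genes the controls spanned the Erbb2 values, and the adjusted p with the block lay between 0.280 and 0.554. Of the phosphatase genes that activate CDK1, Cdc25c had the lowest fitted value of all members, with 3.99, 3.27 and 10.3 CPM in controls and 3.05, 1.47 and 3.87 CPM in Erbb2 libraries. Its log2 fold change with the block was -1.03 (SE 0.26), lower in each pair, with an adjusted p of 0.0528 in edgeR. It passed with the block in limma voom (0.0489) and in edgeR without replicate 1 (0.0418), and not in DESeq2 (0.0995). In edgeR with the block it did not pass without replicate 2 (0.186), without replicate 3 (0.264) or under relative log expression scaling (0.0532). Cdc25b was the one member whose groups did not overlap, where 4.48% of all genes had Erbb2 values all below the controls; 0 members had them all above, against 4.27%. It was at 36.7, 34.3 and 51.5 CPM in controls and 31.8, 29.2 and 34.0 CPM in Erbb2 libraries (log2 fold change -0.35, SE 0.11, adjusted p = 0.112 with the block). The highest Erbb2 value and the lowest control value of this gene, 34.0 and 34.3 CPM, were nearly equal.

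Among the mitotic kinases and the chromosomal passenger complex, 0 of 7 passed with the block and 4 were lower in each pair. Plk1, the Polo kinase of mitotic entry and exit, had the highest level per kilobase of transcript of all members in controls, 32.5 CPM per kb, followed by Mki67 with 25.6 CPM per kb. Its values were 50.7, 42.0 and 121 CPM in controls and 43.6, 33.7 and 68.1 CPM in Erbb2 libraries. The Erbb2 library was the lower of each pair, and the fit with the block gave -0.47 (SE 0.12, edgeR adjusted p = 0.0575). It passed with the block in limma voom (0.0429), in DESeq2 (0.0278) and in edgeR without replicate 1 (0.0450). In edgeR with the block it did not pass without replicate 2, without replicate 3 or under relative log expression scaling (0.0528). Aurka, the spindle pole kinase, was at 14.2, 14.9 and 41.4 CPM against 14.6, 11.1 and 23.7 CPM, so that only replicates 2 and 3 were lower. Aurkb, the kinase of the passenger complex, was at 11.2, 7.60 and 26.7 CPM against 10.5, 6.74 and 16.3 CPM. Birc5, which encodes its subunit survivin, was at 24.6, 17.4 and 56.7 CPM against 20.5, 17.0 and 31.4 CPM. For the Aurora kinases and Birc5 the adjusted p with the block lay between 0.164 and 0.256. The scaffold Incenp, the subunit gene Cdca8 and Tpx2, the activator of Aurora A, had log2 fold changes of -0.28, -0.41 and -0.31 with the block.

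**Figure D4:**
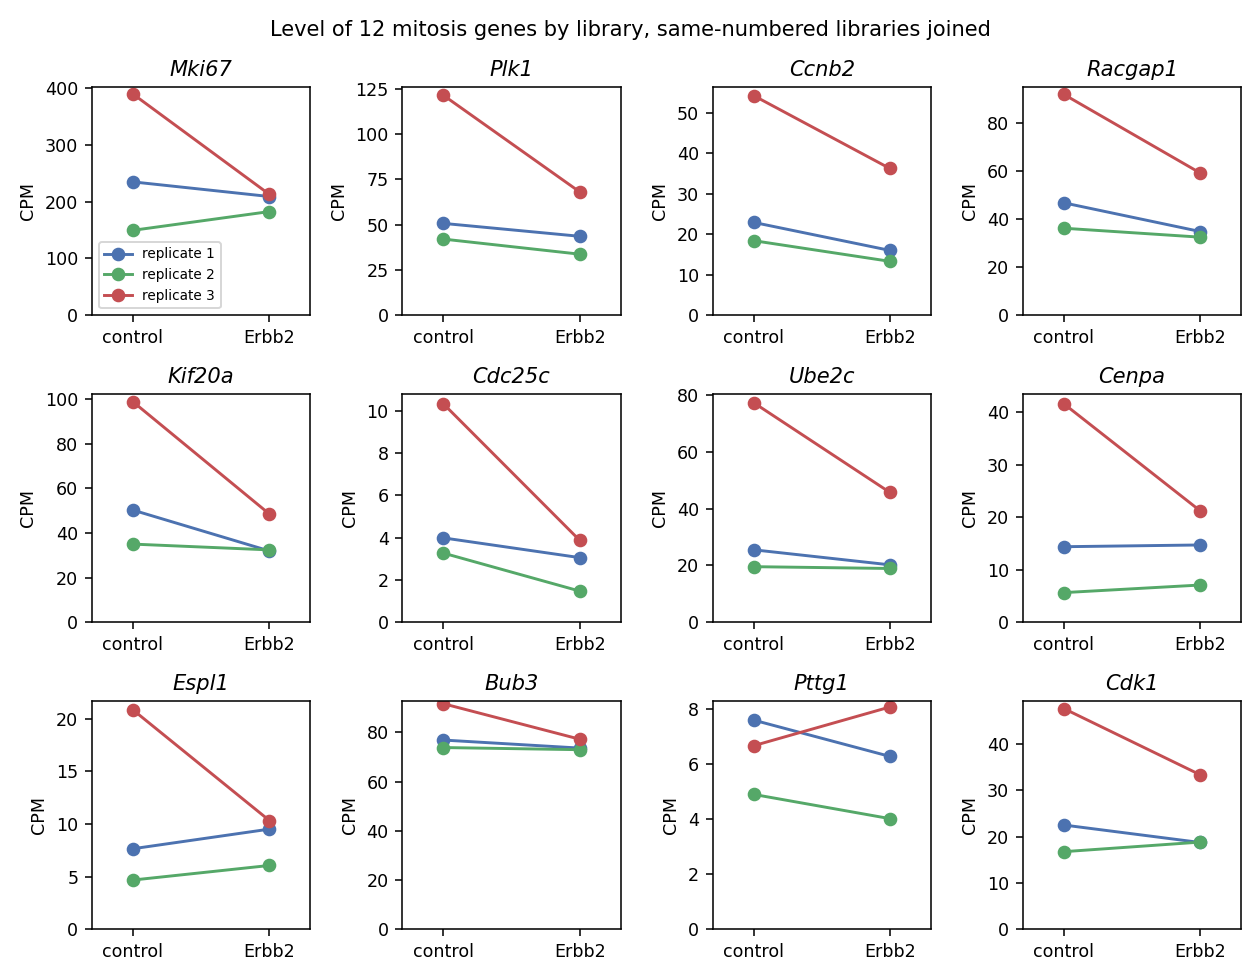
CPM of 12 mitosis genes in control and Erbb2 libraries, each line joining the libraries of 1 replicate number. Ccnb2 is lower by a like proportion in all 3 pairs, Mki67 is lower in replicates 1 and 3 and higher in replicate 2, and Pttg1 has its highest value in Erbb2 replicate 3.

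Of the 11 kinetochore and checkpoint genes, all were lower in replicate 3 and 5 in each pair, and 0 passed. Ndc80, which couples kinetochores to microtubules, had the lowest fitted value of this group. It was at 12.9, 7.60 and 17.5 CPM in controls and 7.63, 7.59 and 9.03 CPM in Erbb2 libraries, so that pair 2 was level (log2 fold change -0.64, SE 0.19, adjusted p = 0.0998 with the block). Its partners in the same complex, Nuf2 and Spc25, stood at -0.47 and -0.26 with the block. Bub1, a checkpoint kinase, was at 9.92, 7.32 and 26.0 CPM against 7.68, 6.74 and 15.9 CPM. Mad2l1, the checkpoint protein that binds the anaphase activator, was at 38.8, 32.5 and 77.0 CPM against 32.7, 31.5 and 50.7 CPM. Both were lower in each pair (adjusted p = 0.164 and 0.173 with the block). Bub3, which recruits BUB1 and also has roles outside mitosis, was nearly level at 76.8, 73.8 and 91.6 CPM against 73.6, 72.9 and 77.2 CPM. It had the smallest range over libraries of all members, 1.26-fold, where the median member varied by 2.99-fold and the median of all tested genes by 1.52-fold. Cenpa, the centromeric histone, varied most, by 7.38-fold. Its level was 14.4, 5.63 and 41.6 CPM in controls and 14.7, 7.08 and 21.2 CPM in Erbb2 libraries, so that pairs 1 and 2 were above 0 and pair 3 was at -0.97. Cenpf, a large kinetochore protein, was at 52.2, 35.1 and 75.5 CPM against 40.8, 43.9 and 45.9 CPM. The checkpoint kinases Bub1b and Ttk and the motor Cenpe had log2 fold changes of -0.24, -0.35 and -0.39 with the block.

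Of the 7 cytokinesis genes, 6 were lower in each pair and 1 fell with the block. Racgap1 was at 46.8, 36.2 and 92.0 CPM in controls and 34.8, 32.5 and 59.2 CPM in Erbb2 libraries. The pairs gave -0.42, -0.16 and -0.63 and the log2 fold change with the block was -0.42 (SE 0.10, adjusted p = 0.0493 in edgeR), a 1.34-fold lower level. This call was at the edge of the threshold: the adjusted p was 0.0517 with relative log expression scaling, 0.0524 in DESeq2 and 0.0311 in limma voom, all with the block, and between 0.0754 and 0.179 when a pair was left out. Kif20a, the motor that carries the passenger complex to the midzone, was at 50.3, 35.0 and 98.9 CPM against 32.0, 32.4 and 48.5 CPM. It had a difference of -0.63 (SE 0.16, adjusted p = 0.0826 with the block), and it passed with the block without replicate 2 (0.00982), without replicate 3 (0.0228), in limma voom (0.0478) and in DESeq2 (0.00716). In edgeR with the block it did not pass without replicate 1 or under relative log expression scaling. Anln, the scaffold anillin of the contractile ring, was at 40.8, 26.8 and 70.3 CPM against 31.7, 26.7 and 59.5 CPM. Prc1, the bundler of midzone microtubules, was at 54.2, 36.9 and 104 CPM against 43.3, 37.4 and 73.2 CPM. Neither passed (adjusted p = 0.301 and 0.182 with the block). Kif23, the partner of RACGAP1, its exchange factor Ect2 and the motor Kif20b had log2 fold changes of -0.25, -0.31 and -0.38 with the block.

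All 6 genes of the chromosome group were lower in replicates 1 and 3 and higher in replicate 2. Mki67, the proliferation marker that coats mitotic chromosomes, was at 235, 149.6 and 389.7 CPM in controls and 209, 183 and 213 CPM in Erbb2 libraries. The Erbb2 values lay within the range of the controls and were less spread (202 ± 16.5 CPM against 258 ± 122 CPM, SD, n = 3; log2 fold change -0.26, SE 0.26 with the block, adjusted p = 0.722 in edgeR). Top2a, the topoisomerase that untangles sister chromatids, was at 136, 94.8 and 305 CPM against 128, 107 and 166 CPM. The condensin genes Smc2, Smc4, Ncapd2 and Ncapg had log2 fold changes of -0.23, -0.18, -0.38 and -0.46 with the block. Of the 8 motors and spindle proteins, 5 were higher in replicate 2 and 3 were lower in each pair. Kif11, the motor that pushes the spindle poles apart, was at 33.3, 20.3 and 55.8 CPM against 29.0, 22.7 and 34.3 CPM. Kif18b, a depolymerizing motor of microtubule ends, was at 11.5, 6.65 and 28.0 CPM against 12.1, 9.34 and 19.3 CPM, higher in 2 of 3 pairs. The log2 fold changes with the block were -0.29 and -0.10. Those of Kif2c, Kif4, Kif15 and Kif22 lay between -0.43 and -0.25, and the spindle proteins Hmmr and Nusap1 were at -0.43 and -0.38 with adjusted p-values of 0.0793 and 0.141. Hmmr passed in limma voom with the block.

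At the metaphase-to-anaphase transition the 4 genes parted. Ube2c, the ubiquitin-conjugating enzyme of the anaphase-promoting complex, was at 25.5, 19.5 and 77.3 CPM in controls and 20.2, 18.9 and 45.7 CPM in Erbb2 libraries. Cdc20, the activator of that complex, was at 18.7, 11.6 and 35.2 CPM against 13.2, 11.8 and 23.6 CPM. Both followed the order of the libraries seen in most members (log2 fold changes -0.43 and -0.39 with the block, adjusted p = 0.113 and 0.176). Pttg1, which encodes securin, did not: it was at 7.60, 4.90 and 6.67 CPM in controls and 6.28, 4.02 and 8.08 CPM in Erbb2 libraries. It was the only member whose highest value was not in control replicate 3, and its log2 fold change was -0.06 (SE 0.20) with the block. Espl1, which encodes separase, the protease that securin inhibits, was at 7.65, 4.68 and 20.8 CPM against 9.51, 6.06 and 10.3 CPM. It was higher in pairs 1 and 2 and lower in pair 3, and the member with the lowest level per kilobase beside Cdc25c (1.26 and 1.19 CPM per kb in controls).

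A second list of 84 genes of mitosis that are not members was set beside these, of which 83 were tested. Of these, 0 passed over all genes with or without the block in edgeR, DESeq2 or limma voom, and with the block 24 were lower and 1 was higher at an unadjusted p under 0.05, against 7.21% and 9.64% of all genes. The median log2 fold change was -0.25 with the block, and 24 were lower in each pair while 2 were higher (Gtse1 and Psrc1), against 19.2% and 19.6% of all genes. The smallest p-values were those of Aspm, a spindle pole protein, Cks2, a subunit of cyclin-dependent kinases, and Cdca2, a targeting subunit of a mitotic phosphatase. Aspm was at 22.4, 20.1 and 29.1 CPM in controls and 15.0, 19.1 and 16.5 CPM in Erbb2 libraries. Aspm and Cks2 were among 5 of the 83 genes with Erbb2 values all below the controls, against 4.48% of all genes. For 0 of the 83 they were all above, against 4.27%. Cks2 was at 12.5, 10.8 and 20.1 CPM against 8.37, 9.91 and 10.8 CPM, and Cdca2 was at -0.51 (adjusted p between 0.0929 and 0.101 with the block for these 3 genes). The 15 genes of the anaphase-promoting complex, its activator Fzr1 included, which are expressed through the cell cycle, varied little: their median range over libraries was 1.28-fold. Their summed level lay between 806 and 828 CPM in controls and between 767 and 788 CPM in Erbb2 libraries, so that it was lower in each pair and the groups did not overlap. Of the 15, 13 had a fitted log2 fold change below 0 without the block, against 52.3% of all genes. The sum was not tested. In that list 0 passed, with Anapc13, Anapc16 and Anapc5 at -0.31, -0.22 and -0.17 with the block (adjusted p = 0.116, 0.259 and 0.312).

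Genes of DNA replication, which mark S phase, had their summed level in the same order over the 6 libraries as the mitosis genes. Of 25 genes 0 passed with or without the block, all 25 had a fitted value below 0 (52.3% of all genes), and 5 were lower in each pair, a share close to the 19.2% of all genes. Their median differences were -0.03, 0.17 and -0.54 in pairs 1, 2 and 3. The smallest p-values were those of Cdc45, Prim1 and Rrm1, at -0.52, -0.41 and -0.28 with the block (adjusted p = 0.0853, 0.156 and 0.169). The summed level was 904, 676 and 1563 CPM in controls and 886, 766 and 1096 CPM in Erbb2 libraries. The summed mitosis genes over the summed replication genes gave ratios of 2.23, 2.14 and 2.42 in controls and 1.93, 1.96 and 2.14 in Erbb2 libraries. This ratio was lower in the Erbb2 library of each pair, including replicate 2, although the lowest control and the highest Erbb2 library were nearly equal. It is a sum over chosen genes and was not tested. Of the replication windows 43.5% held an E2F match, 17.4% a CHR match and 65.2% an NF-Y match, and of the windows of the second mitosis list 16.7%, 55.1% and 64.1%. In that second list the nearest CHR and NF-Y matches began a median of 25 bases apart.

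**Figure D5:**
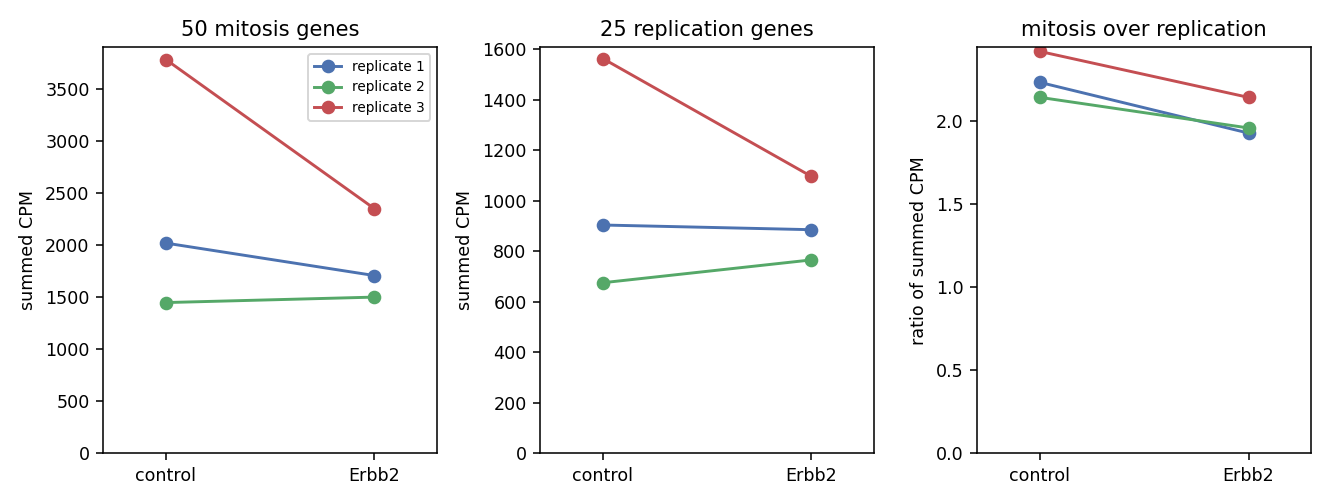
Summed CPM of 50 mitosis genes, summed CPM of 25 replication genes and the ratio of the 2 sums, in control and Erbb2 libraries; each line joins the libraries of 1 replicate number. Both sums are lower in replicates 1 and 3 and higher in replicate 2, while the ratio is lower in the Erbb2 library of each pair, from between 2.14 and 2.42 in controls to between 1.93 and 2.14.

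The exons of 13 members overlap those of another listed gene in the annotation, 12 of them on the opposite strand. The strand setting of the counting is not given in the sources used here, so that it is not known how reads in the shared exon stretches were counted. Reads over the rest of these genes are not affected, and the length of the shared stretches was not measured. Among them are Cdc20 with Elovl1, Kif4 with Pdzd11, Kif20a with Cdc23, Ccna2 with Exosc9 and Plk1 with a predicted antisense gene.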

How the data were processed

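The authors deposited raw read counts per Ensembl gene, 1 table for each of 6 libraries of polyadenylated RNA, with a column of matched counts per the file headers. The submitters' processing notes name STAR, featureCounts and GRCm39, while versions, annotation and strand were not given in the sources used here. Symbols were matched for 25424 of 25528 IDs. The members and lists were chosen with earlier results of these data known.

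Genes were kept by filterByExpr with a minimum count of 10 (12593 genes), scaled by TMM and tested by quasi-likelihood in edgeR 4.0.16 in R 4.3.3, adjusted by the Benjamini-Hochberg method over all tested genes with a threshold of 0.05. SE is the log2 fold change over the square root of F. The design had the group as its single term, with the replicate block as the alternative. Deviations from group means correlated at 0.333, 0.660 and 0.707 across genes within same-numbered pairs, each library best with its own number. Libraries of unlike numbers reached 0.128, for control replicate 1 with Erbb2 replicate 2. The numbers were taken as pairing the libraries on these values, which come from the same counts that were then tested. The labels do not state a pairing. Differences within pairs use log2 CPM with a prior count of 2. Libraries of a group differed beyond sampling noise (chi-square per degree of freedom 33.5 to 126) and all were kept. Levels per kb use the exon length of GENCODE M21 on GRCm38. DESeq2 1.42.0, limma 3.58.1 (voom), other scalings and filters, and leaving out libraries were alternatives. The procedure was also run on data simulated with replicate effects and dispersions from the fit with the block, with the outcome not reported here. Pairing was thus built in, and the simulation cannot show whether the numbers pair the libraries. Every member may be named. Values per library are given for 24 listed members, those called in either fit and the 3 highest and 3 lowest fitted values. The 3 genes of each other list with the smallest p-values with the block are named. Cdc25b, Gtse1, Psrc1 and the cell type markers with values were added after their values were seen. Of the second mitosis list Lin54 was not analysed here, nor was Cblif among the epithelial markers.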

Additional observations from a re-analysis of the deposited data

How the results depend on the processing

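The group test without the block called 0 members under relative log expression or upper-quartile scaling, both other filters, DESeq2 and limma voom, and all 28 members followed by library kept their direction in these. The calls depended on the replicate block, fitted with 2 residual degrees of freedom. Members called lower numbered 2 with the replicate block, 1 with it under relative log expression scaling, 6 in limma voom and 3 in DESeq2. Genes called higher and lower, from 0 and 0, were 28 and 6 in DESeq2 without the block, 298 and 91 with the block, and with it 312 and 83 under relative log expression scaling, 311 and 106 in limma voom and 370 and 96 in DESeq2. The Erbb2 log2 fold change, not called without the block in edgeR, passed at 1.23 in DESeq2, at 1.23 with the block, and with it at 1.24 under relative log expression scaling, 1.23 in limma voom and 1.24 in DESeq2. The block changed no other call among the members and the mitosis, anaphase-promoting complex and replication lists. The cause of these changes was not tested.

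Leaving out 1 library, or 1 pair with the block, gave 0 to 2 members called lower, 0 to 769 genes called higher, 0 to 320 called lower, 0 to 1 called in the second mitosis list and 0 to 2 in the replication list, with a member median between -0.71 and 0.12 and Erbb2 between 1.12 and 1.37. Without control replicate 3 and without the block, 22 of the 28 members followed by library turned above 0. For the 5 of the 28 that stayed below 0 in all of these, the lowest and highest log2 fold changes were -1.36 and -0.34 for Cdc25c, -0.99 and -0.18 for Kif20a, -0.91 and -0.35 for Ndc80, -0.55 and -0.0023 for Cenpf and -0.18 and -0.011 for Bub3. For the members that changed sign they were -0.63 and 0.072 for Mki67, -0.72 and 0.21 for Top2a, -0.63 and 0.27 for Cdk1, -0.77 and 0.30 for Ccnb1, -0.76 and 0.21 for Ccna2, -0.69 and 0.25 for Foxm1, -0.87 and 0.19 for Aurka, -0.82 and 0.26 for Aurkb, -0.89 and 0.071 for Plk1, -0.82 and 0.14 for Birc5, -1.01 and 0.24 for Bub1, -0.62 and 0.11 for Mad2l1, -0.96 and 0.52 for Cenpa, -0.64 and 0.10 for Kif11, -0.66 and 0.22 for Anln, -0.69 and 0.18 for Prc1, -0.81 and 0.11 for Cdc20, -1.06 and 0.34 for Ube2c, -0.30 and 0.16 for Pttg1, -0.72 and 0.49 for Espl1, -1.12 and 0.091 for Ccnb2, -0.79 and 0.030 for Racgap1, -0.54 and 0.59 for Kif18b. These ranges pool fits with and without the block. With the block, Ccnb2 lay between -0.54 and -0.49 and Racgap1 between -0.52 and -0.29. Of the members that changed sign, only Mki67, Top2a, Ccna2, Cenpa, Pttg1, Espl1 and Kif18b also did so with the block.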
